A study of Homo sapiens with 6 samples.

Results

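The 6 host loci described here are RPSA, RPL27A, RPS12, SNHG12, RPL39 and EPB41L4A-AS1, each a gene that carries small nucleolar RNAs (snoRNAs) inside it. They were chosen by their crosslink counts: the genomic windows holding them took a larger part of the events in control libraries than in QKI-5 libraries. They are 6 regions, drawn from 174732 strand-specific windows of 10000 nt that held any event. The contrast between controls and QKI-5 at these loci therefore selected them, and every difference between the groups below is a description with no test. The window counts behind the choice did not use where inside each locus the events lay. A pile-up of control events at a single place can still raise such a count, so position is not fully separate from the choice.

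All libraries were made by iCLIP from cells of the bronchial epithelial line BEAS2B, irradiated with UV at 150 mJ/cm2. iCLIP records, from the end of each cDNA, the nucleotide at which a protein was crosslinked to RNA, and 1 such record is called an event. In 3 libraries RNA was recovered with a QKI-5 antibody, QKI-5 being the nuclear form of the splicing regulator Quaking, and 3 control libraries have no antibody. The labels do not say whether replicates were separate cultures, and the cells were not checked against marker genes here.

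snoRNAs are short nuclear RNAs that guide the chemical modification of ribosomal and spliceosomal RNA. Box H/ACA snoRNAs (named SNORA) fold into hairpins, bind dyskerin and direct the conversion of uridine to pseudouridine. Box C/D snoRNAs (named SNORD) bind fibrillarin and direct ribose methylation. Most human snoRNAs are not transcribed on their own but are cut from the introns of a host gene after splicing, so that host and guide come from the same transcript. Host genes are often genes of the translation machinery, or noncoding genes whose introns are the stable product, and many start with the pyrimidine-rich sequence of growth-regulated transcripts (a 5′ terminal oligopyrimidine tract).

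RPSA, RPL27A, RPS12 and RPL39 encode ribosomal proteins, and SNHG12 and EPB41L4A-AS1 are noncoding. On hg19 the loci were taken as chr3:39448204-39454033 on the plus strand for RPSA, chr11:8703000-8712000 plus for RPL27A and chr6:133135708-133138703 plus for RPS12. SNHG12 was taken as chr1:28905050-28909492 on the minus strand, RPL39 as chrX:118920467-118925606 minus and EPB41L4A-AS1 as chr5:111496223-111498198 plus. The RefSeq table of GRCh38.p14 lists 2 snoRNAs between the ends of RPSA (SNORA6, SNORA62), 2 in RPL27A (SNORA3A, SNORA3B) and 3 in RPS12 (SNORD101, SNORD100, SNORA33). It lists 4 in SNHG12 (SNORD99, SNORA61, SNORA44, SNORA16A), 1 in RPL39 (SNORA69) and 1 in EPB41L4A-AS1 (SNORA13). That table is of another build, so it was used for names and their order along the chromosome only, and no crosslink position was assigned to a snoRNA, exon or intron by coordinates.

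The starts of the host genes are shown because a pyrimidine tract there is a known feature of many such genes. Each sequence runs from 15 bases before the RefSeq start to 15 bases from it (GRCh38.p14, strand of the gene), with CTTT in capitals.
RPSA: tttcctgccgcctgtCTTTtccgtgctacc
RPL27A: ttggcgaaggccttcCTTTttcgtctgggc
RPS12: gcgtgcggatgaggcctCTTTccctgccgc
SNHG12: tcgcggcttcagcgccCTTTctccccgccg
RPL39: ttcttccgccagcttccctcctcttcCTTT
EPB41L4A-AS1: tggactcatgaattctgtcgggtcccaaaa
CTTT stood in 5 of the 6 windows on the gene's strand and AAAG, its reverse complement, in 0. Of 35116 RefSeq promoter windows of the same 30 bases, 12.5% held CTTT and 9.80% AAAG. The motif was chosen after the sequences were seen, and a match is a string of letters, not evidence of a tract in use.

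Values are given as EPM, events per 1000000 events of the library. The controls held 29810 to 137926 events and the QKI-5 libraries 2143279 to 7283982, so 1 event is worth 7.25, 24.1 and 33.5 EPM in controls 1, 2 and 3, and 0.137, 0.467 and 0.346 EPM in the QKI-5 libraries, in the same order. A floor of 3 events is 100.6 EPM in control 3. Low control values are coarse for that reason. EPM fall in one group when other RNA takes more of its library, and a larger recovery of other RNA with the antibody cannot be told apart from a smaller recovery of these loci.

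All 6 loci took a larger part of every control library than of any QKI-5 library. Together they made up 0.142 ± 0.0294% of a control library and 0.0167 ± 0.00389% of a QKI-5 library (SD, n = 3 each). The groups did not overlap at 6 of the 6 loci, and 3.65% of the 29960 windows tested had that order. Because that order was part of the choice, nothing is read from this. The plot of levels by locus shows the same separation library by library.

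**Figure D1:**
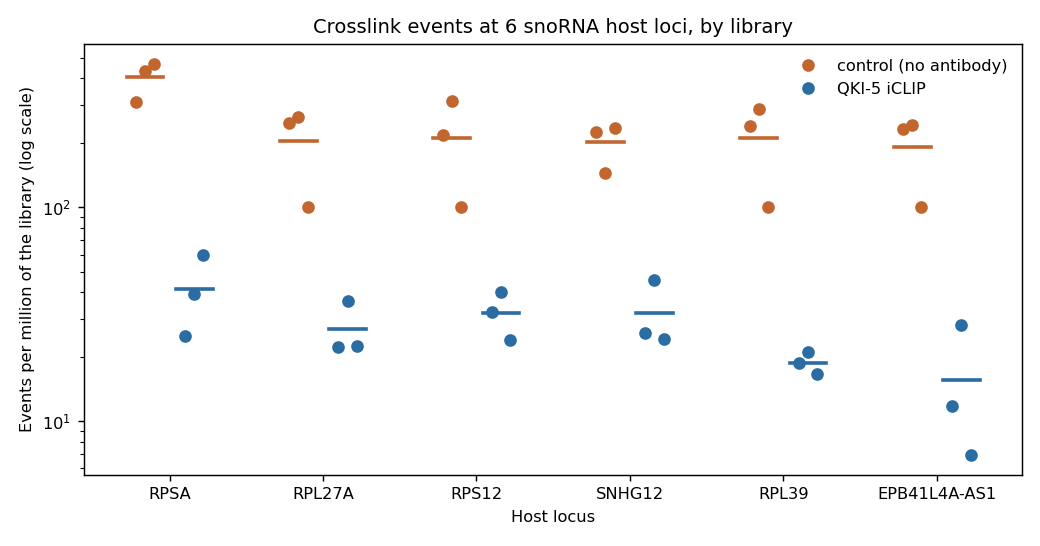
Crosslink events in EPM (log scale) at each host locus. Each point is 1 library, orange for controls and blue for QKI-5 iCLIP, and each bar is the group mean. At every locus the 3 controls lie above the 3 QKI-5 libraries, the nearest pair being 100.6 EPM in control 3 and 40.1 EPM in QKI-5 replicate 2 at RPS12.

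RPSA, the host with the most control signal, encodes a protein of the small ribosomal subunit that is also known as the laminin receptor. It held 312, 434 and 470 EPM in controls 1, 2 and 3 (43, 18 and 14 events) and 24.99, 39.2 and 59.9 EPM in the QKI-5 libraries, in replicate order (182, 84 and 173 events). The mean was 405 ± 82.8 EPM in controls and 41.4 ± 17.5 EPM with QKI-5 (SD, n = 3 each), a ratio of 9.80.

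RPL27A, a protein of the large subunit, held 247, 265 and 100.6 EPM in the controls (34, 11 and 3 events) and 22.1, 36.4 and 22.5 EPM in the QKI-5 libraries. The ratio of the means was 7.56. RPS12, a small-subunit protein, held 218, 313 and 100.6 EPM against 32.3, 40.1 and 23.9 EPM, a ratio of 6.56. RPL39, the smallest of these proteins and part of the peptide exit tunnel, held 239, 289 and 100.6 EPM against 18.7, 21.0 and 16.6 EPM, a ratio of 11.2. In each of these ribosomal protein genes, control 3 was the lowest control at its floor of 3 events, while the QKI-5 libraries lay between 16.6 and 40.1 EPM.

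SNHG12, a noncoding host, held 225, 145 and 235 EPM in the controls (31, 6 and 7 events) and 25.9, 45.7 and 24.2 EPM in the QKI-5 libraries, with the lowest ratio of the 6, 6.30. Here control 2 was the lowest control and QKI-5 replicate 2 the highest of its group. EPB41L4A-AS1, a noncoding gene beside EPB41L4A on the other strand, held 232, 241 and 100.6 EPM against 11.8, 28.0 and 6.92 EPM, with the highest ratio, 12.3. That ratio rests on QKI-5 replicate 2 more than on the other libraries, and was 20.4 without it. On TMM factors in place of library totals, the ratios of the 6 loci were smaller, 3.85 (SNHG12) to 7.93 (EPB41L4A-AS1).

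The next question was where inside the loci these events lay. In each locus the 150 nt stretch with the largest share of events, averaged over the 6 libraries with equal weight, was taken, and the search was repeated while a stretch held at least 10% of the locus. This gave 11 focal stretches, 2 each in RPSA, RPL27A and RPS12, 3 in SNHG12 and 1 each in RPL39 and EPB41L4A-AS1. They cover 2.92% (RPL39) to 10.1% (SNHG12) of the length of their locus. Their number equals the number of snoRNAs that RefSeq lists in RPSA, RPL27A, RPL39 and EPB41L4A-AS1, and is 1 lower in RPS12 and in SNHG12.

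The 11 stretches held nearly all control events of the loci and most QKI-5 events. Over the 6 loci together they held 196 of 203, 67 of 70 and 30 of 33 events in controls 1, 2 and 3. These shares are 96.6% (95% exact binomial interval 93.0 to 98.6), 95.7% (88.0 to 99.1) and 90.9% (75.7 to 98.1). In QKI-5 replicates 1, 2 and 3 they held 657 of 989, 333 of 451 and 349 of 445 events, or 66.4% (63.4 to 69.4), 73.8% (69.5 to 77.8) and 78.4% (74.3 to 82.2). The mean share was 94.4 ± 3.04% in controls and 72.9 ± 6.05% with QKI-5 (SD, n = 3 each), a difference of -21.5 percentage points with no overlap between the groups. Intervals cover counting error only. With the stretches found in the QKI-5 libraries alone, so that the controls played no part in placing them, the control share was again 94.4%, against 76.2% in QKI-5.

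**Figure D2:**
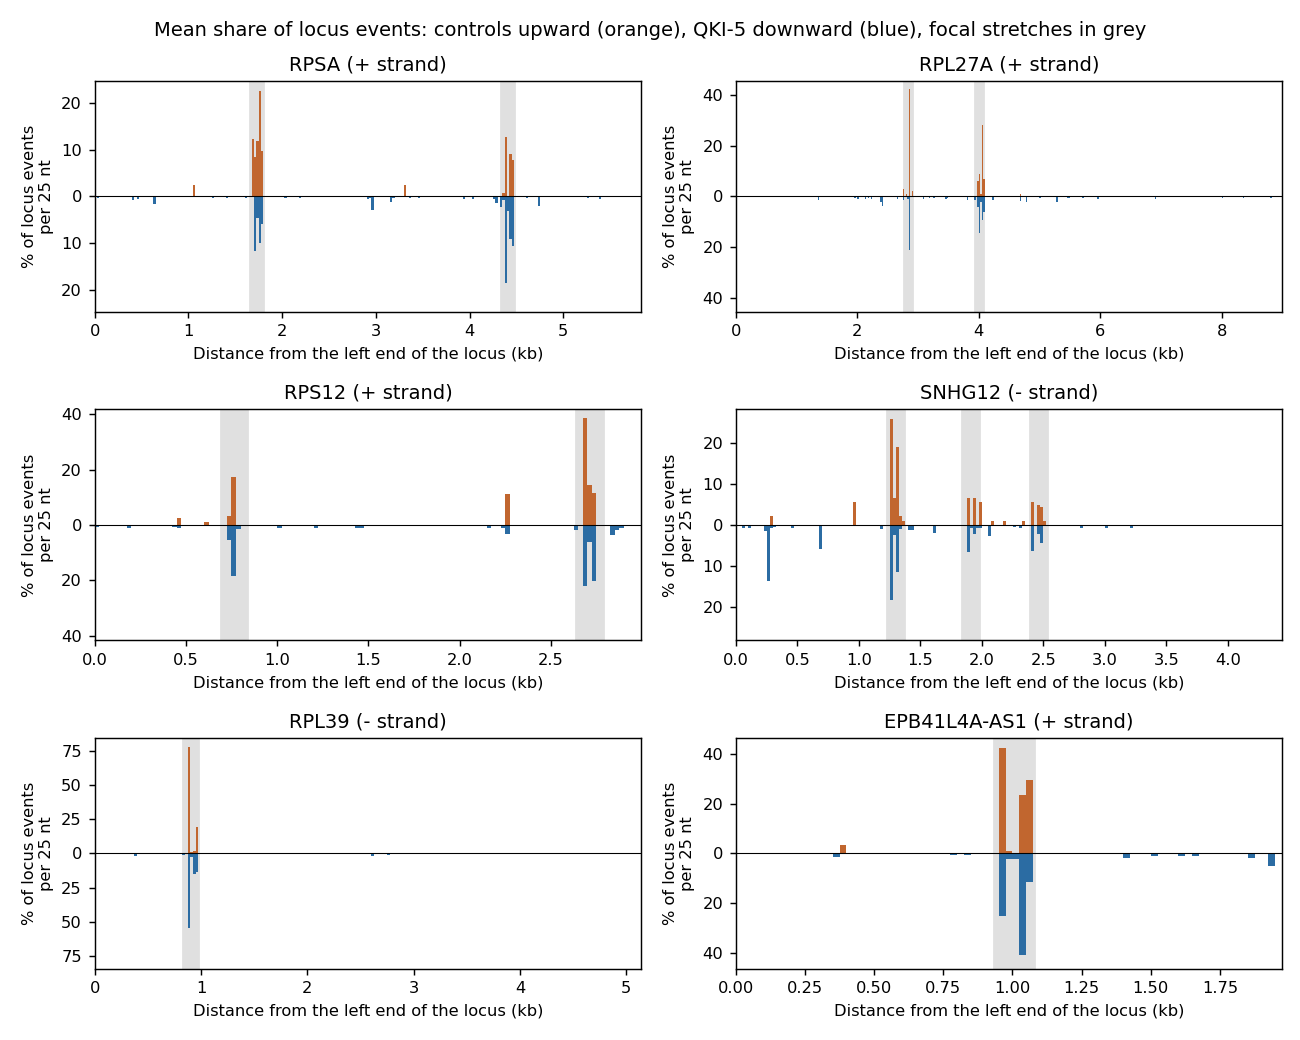
Share of locus events per 25 nt (y axis, %) along each locus from its left end on the chromosome (x axis, kb), as the mean of 3 controls (orange, upward) and 3 QKI-5 libraries (blue, downward), with the 150 nt focal stretches in grey. In every panel both groups pile up in the grey stretches, 2 in RPSA and 3 in SNHG12, and QKI-5 has further bars outside them. In SNHG12 these include a pile near the left end, not in grey, with 17.6% of its pooled QKI-5 events.

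The stretches and the rest of each locus were then compared between the groups. Since all 6 libraries placed the stretches, and the loci were chosen for control excess, a higher ratio inside them is partly built in. Pooled over libraries and loci, the stretches held 293 control and 1339 QKI-5 events, a control over QKI-5 ratio of 12.9 (95% exact interval 11.3 to 14.6). The rest of the 6 loci held 13 control and 546 QKI-5 events, a ratio of 1.40 (0.742 to 2.42). With the stretches placed by the QKI-5 libraries alone, an alternative added after the values were seen, 12 stretches gave a ratio of 12.3 (10.8 to 14.0) and the rest 1.59 (0.839 to 2.74), again from 293 and 13 control events. Per library the rest held 50.8, 72.3 and 100.6 EPM in controls 1, 2 and 3, and 45.6, 55.1 and 33.2 EPM in the QKI-5 libraries. These groups overlapped, and control 3 had only 3 events there. The means were 74.6 ± 25.02 EPM in controls and 44.6 ± 10.9 EPM with QKI-5 (SD, n = 3 each). The interval of 0.742 to 2.42 covers counting error only, without the spread between libraries. Neither a difference nor its absence is read from the rest.

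Locus by locus the values were as follows. In the stretches the pooled ratio ran from 8.95 (6.33 to 12.4) in RPS12 to 18.9 (13.1 to 26.7) in EPB41L4A-AS1. In the rest it was 1.21 (0.145 to 4.50) for RPSA with 2 control events, 0.475 (0.0119 to 2.69) for RPL27A with 1 and 1.65 (0.335 to 4.96) for RPS12 with 3. It was 2.25 (0.813 to 5.01) for SNHG12 with 6 control events and 2.03 (0.0497 to 12.2) for EPB41L4A-AS1 with 1. The rest of SNHG12 includes a place at chr1:28905219-28905368, described below, with 63 of its 157 QKI-5 and 2 of its 6 control events. RPL39 had no control event outside its stretch in 48, against 32 of 229 in QKI-5, and its exact interval reached up to 7.19. Pooling gives most weight to control 1. As ratios of the library means, as used for whole loci, the rest stood at 2.57 for RPSA, 0.234 for RPL27A, 2.80 for RPS12, 1.54 for SNHG12 and 3.39 for EPB41L4A-AS1. For RPSA, RPL27A, RPS12 and EPB41L4A-AS1 the pooled values thus lie nearer to 1, and for SNHG12 farther from it.

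**Figure D3:**
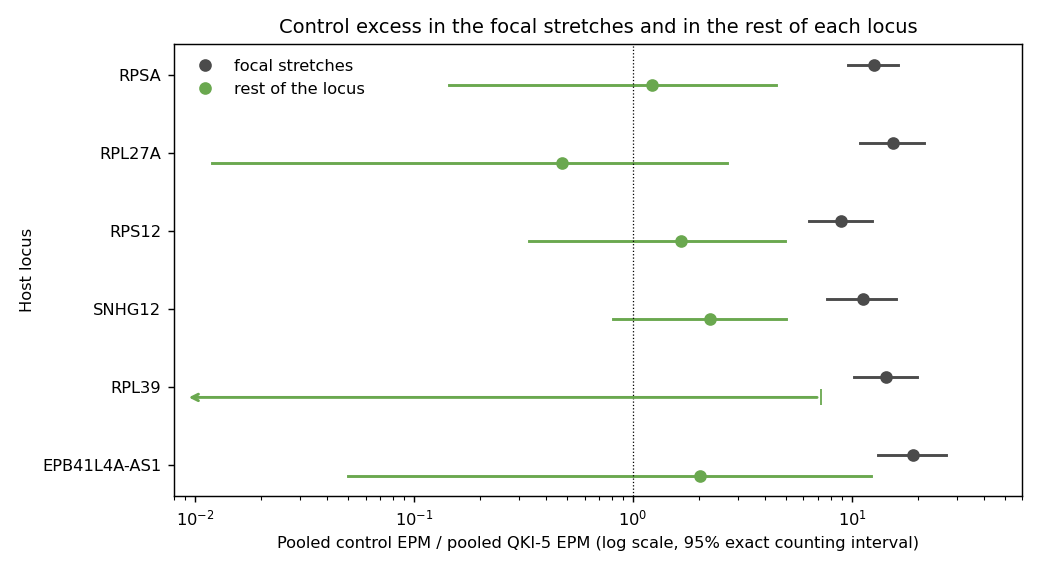
Pooled control EPM over pooled QKI-5 EPM (log scale) in the focal stretches (dark) and in the rest (green) of each locus, with 95% exact counting intervals, and the dotted line at a ratio of 1. The stretches sit between 8.95 and 18.9, and every interval of the rest crosses 1. The arrow for RPL39, with no control event in the rest, starts at the upper end of its interval, 7.19.

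Both RPSA stretches showed the excess. The first, chr3:39449864-39450013, held 145, 362 and 302 EPM in controls 1, 2 and 3 and 8.92, 13.5 and 15.6 EPM in the QKI-5 libraries. Its ratio of 21.3 was the highest of the 11 stretches. The second, chr3:39452535-39452684, held 167, 72.3 and 100.6 EPM against 9.06, 13.5 and 37.4 EPM, a ratio of 5.66. QKI-5 replicate 3 stood apart in the second stretch, where 36 of its 108 events shared a single position, and without that library the ratio was 10.0. The second stretch lies in the neighbouring window, outside the window by which RPSA was chosen. That window was also called lower in the same fit, so the stretch is no independent repeat of the excess. The log2 fold change of that window was -1.79, and -0.35 without control 1, in a fit whose median over all windows was 6.69. On library totals the ratio of the stretch was 4.33 without control 1. Controls 2 and 3 held 3 events each in the stretch. Taken in chromosome order, the RefSeq snoRNAs would be SNORA6 for the first stretch and SNORA62 for the second, both of the box H/ACA kind.

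The RPL27A stretches, chr11:8705772-8705921 and chr11:8706940-8707089, would be SNORA3A and SNORA3B by order, closely related H/ACA RNAs. The first held 102, 96.4 and 67.1 EPM in controls and 3.98, 9.80 and 6.23 EPM in QKI-5, a ratio of 13.2. The second held 138, 169 and 33.5 EPM against 8.24, 14.5 and 7.27 EPM, a ratio of 11.3. In control 3 these values are 2 and 1 events. The sources used here do not say how reads that match both copies were placed, so the split between the copies is uncertain.

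The RPS12 stretches differed in size of the excess. The first, chr6:133136398-133136547, held 4, 2 and 1 control events and 8.79, 10.7 and 5.19 EPM in QKI-5, a ratio of 4.48, the lowest of the 11. Its pooled ratio was 4.04 (1.58 to 8.63). The second, chr6:133138348-133138497, held 25, 10 and 1 control events and 13.04, 21.5 and 13.8 EPM in QKI-5, a ratio of 9.43 and a pooled ratio of 11.7 (7.95 to 16.8). The intervals of the pooled ratios touch, and RefSeq's 3 snoRNAs cannot be matched to 2 stretches by order.

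SNHG12 had its strongest stretch at chr1:28906278-28906427, with 19, 1 and 6 control events and 7.14, 18.2 and 8.31 EPM in QKI-5, a ratio of 10.8. The second, chr1:28906888-28907037, held 2, 3 and 0 control events, and its groups overlapped. It was the exception to the 10 stretches where each control exceeded each QKI-5 library. That order was part of the choice of loci, and its frequency among stretches outside them was not measured. Nothing is therefore read from the count of 10. The ratio of the second stretch was 8.89, and 2.23 without control 2. The third, chr1:28907441-28907590, held 5, 1 and 1 control events and had a ratio of 7.11. With the limit at 5% of locus events another stretch was added at chr1:28905219-28905368, which held 17.6% of the QKI-5 events of SNHG12. That place had 34, 20 and 9 events in QKI-5 replicates 1, 2 and 3 and 2, 0 and 0 in the controls. Its pooled ratio was 1.87 (0.221 to 7.04), and 4 stretches would match the 4 RefSeq snoRNAs, with the box C/D RNA SNORD99 at this end by order.

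The single stretch of RPL39, chrX:118921300-118921449, held all 33, 12 and 3 control events of the locus, and 115 of 136, 41 of 45 and 41 of 48 events in the QKI-5 libraries. Its ratio was 12.8. The single stretch of EPB41L4A-AS1, chr5:111497155-111497304, held 32 of 32, 9 of 10 and 3 of 3 control events and 68 of 86, 53 of 60 and 16 of 20 in QKI-5. Its ratio was 13.9, and 24.6 without QKI-5 replicate 2. RefSeq lists a single H/ACA RNA in each of these hosts, SNORA69 and SNORA13. Over the 11 stretches the median ratio was 10.8. On TMM factors the ratios ran from 2.57 in the first stretch of RPS12 to 11.3 in the first of RPSA. With each position counted once all 11 were larger, from 9.48 in the first of RPS12 to 38.6 in the first of RPL27A. The second of RPSA then stood at 9.65, the second of RPL27A at 20.3, RPL39 at 22.9, the first of SNHG12 at 16.8 and the third of SNHG12 at 13.9. In the first of RPL27A, controls 1, 2 and 3 had 14, 4 and 2 events at 6, 3 and 2 positions. QKI-5 replicates 1, 2 and 3 had 29, 21 and 18 events there, at 13, 3 and 4 positions. Why counting a position once gave larger ratios was not tested, and they cannot be read as a larger excess.

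Inside the stretches the events of both groups shared places in some stretches and less in others. The position with the most events was the same in pooled controls and pooled QKI-5 libraries in 3 stretches (the second of RPL27A, RPL39 and EPB41L4A-AS1). In RPL39 this was position 118921366, with 13 of 48 control and 42 of 197 QKI-5 events. In EPB41L4A-AS1 it was position 111497263, with 10 of 44 and 36 of 137 events. In the first stretch of RPL27A the top positions, 8705869 and 8705870, were adjacent and held 30.0% and 29.4% of the events of each group. The top positions lay 8 and 44 nt apart in the stretches of RPSA, 44 nt in the second of RPS12 and 65 nt in the third of SNHG12. In the first stretch of RPS12 and the first and second of SNHG12 no control position held more than 2 events, too few to place a top position.

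The controls were also measured at spots found from QKI-5 events only, but inside stretches that all 6 libraries had placed. The control shares below are therefore shares of events in stretches that the controls helped to place. In each stretch the 2 fullest spots of 11 nt were found from the pooled QKI-5 events, covering 14.7% of the stretch. These spots held 65.3% of the QKI-5 events, which placed them, and 180 of the 293 control events (61.4%), which did not. In EPB41L4A-AS1 the spots were centred 77 nt apart and held 78.8% of QKI-5 and 81.8% of control events. In RPL39 they lay 56 nt apart and held 60.4% in each group, and in the second stretch of RPS12 they lay 59 nt apart and held 53.6% and 58.3%. The lowest control share was in the first stretch of RPS12, with 69.6% of QKI-5 events but 1 of 7 control events. Of all control events in stretches, 86.7% fell at a nucleotide that also had a QKI-5 event, and such nucleotides made up 21.0% of the stretches.

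**Figure D4:**
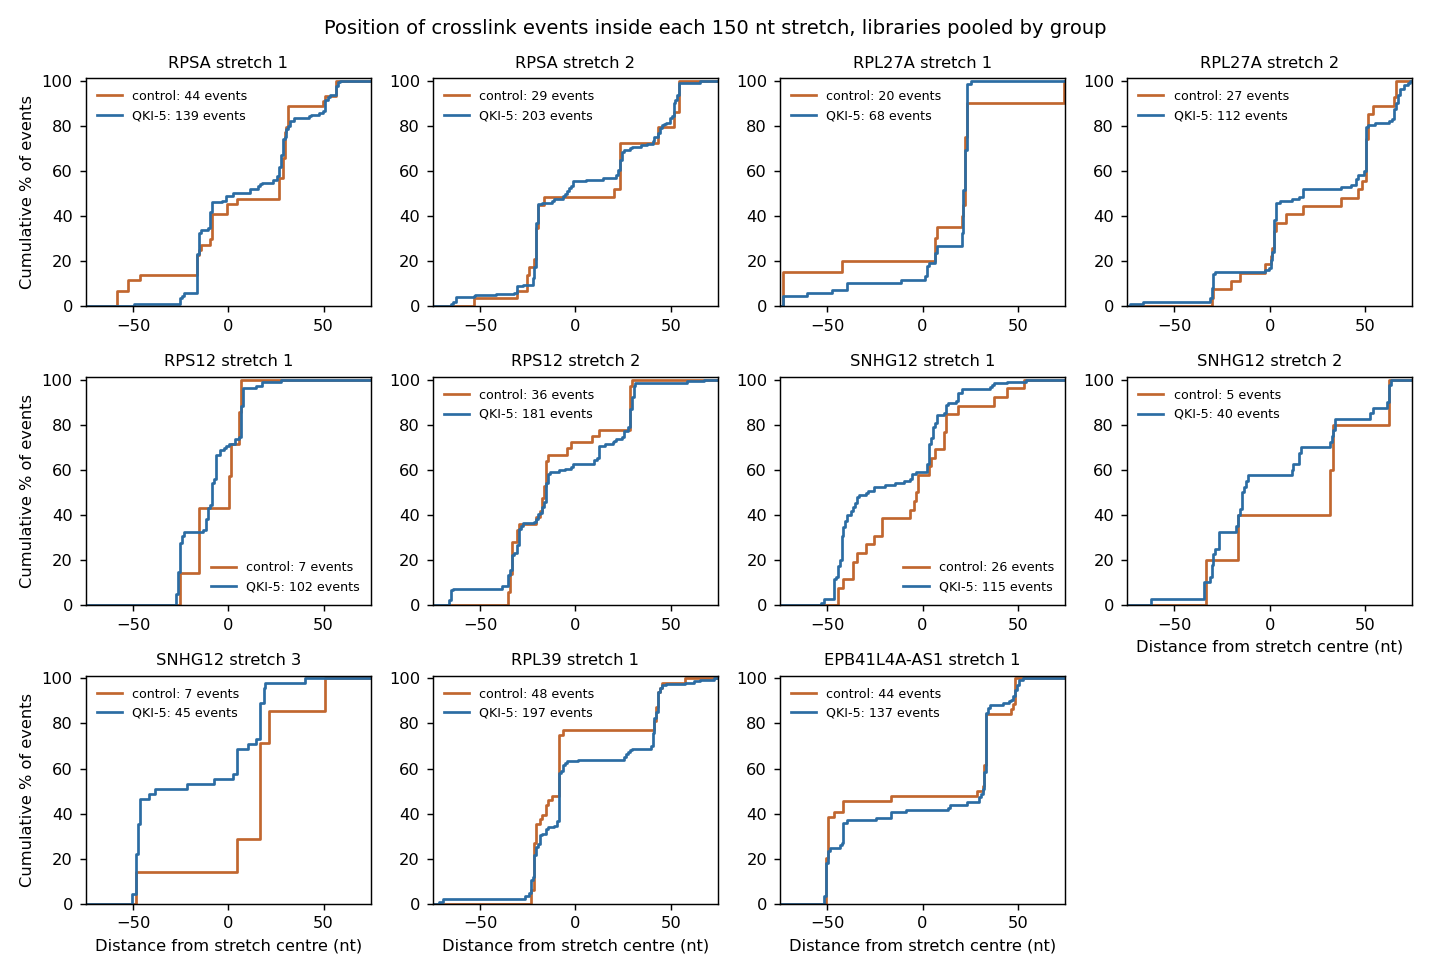
Cumulative share of events (y axis, %) by distance from the centre of each 150 nt stretch (x axis, nt), with libraries pooled by group, controls in orange and QKI-5 in blue. In EPB41L4A-AS1 both curves climb in steps 77 nt apart, while they part in the third stretch of SNHG12, where the controls hold 7 events.

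Repeated events at a position were common in both groups. Over the 6 loci the libraries held 1.85, 1.52 and 1.27 events per position with an event in controls 1, 2 and 3, and 1.93, 2.12 and 2.56 in QKI-5 replicates 1, 2 and 3. The sources used here do not say whether such repeats are PCR copies of a cDNA. With each position counted once and scaled to the positions of the library, the log2 ratio of QKI-5 over control was lower at all 6 loci than with events, at -3.16 to -4.00. At these loci this count cut repeats more in the QKI-5 libraries, each with more events per position than any control. The deepest of them, replicate 1, had the lowest value of its group. The reason was not tested, and the lower log2 ratios cannot be read as a larger control excess.

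Among all tested strand-specific windows of the same length, on both strands, the members were more focal than most in the QKI-5 libraries. The fullest 150 nt of the tested windows held a median of 14.2% of their pooled QKI-5 events. The RPL39 window had 85.7% there, the first RPSA window 78.1%, the EPB41L4A-AS1 window 74.1% and the second RPSA window 70.2%, each above 99.6% of windows. The RPS12, RPL27A and SNHG12 windows, whose events are divided over several stretches, had 44.4, 38.8 and 31.2%, above 97.2, 95.5 and 90.6% of windows. This measure uses no control library. Some loci fill only part of their window, as EPB41L4A-AS1 with 1976 nt, and the shares were not adjusted for that. Measured in the pooled controls, the member windows stood above 70.5 to 80.9% of windows with a control event, of which the median held 3 events. Among the 265 windows with at least 20 control events they stood above 74.3 to 92.5%. No other snoRNA host was compared here.

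The windows that led to the loci were the 6 with the smallest adjusted p among windows lower with QKI-5 and without overlap of the groups. In the edgeR quasi-likelihood fit 0.107% of windows were called lower. The last window inside the choice, that of SNHG12, had a log2 fold change of -2.09 (SE 0.44), with 204 ± 51.3 EPM in controls and 33.0 ± 12.3 EPM with QKI-5 (SD, n = 3 each). Without control 1 it was -0.96 and no longer called. The RPL27A, RPS12 and EPB41L4A-AS1 windows, at -1.41, -1.23 and -1.96, and the second RPSA window, at -0.35, were not called either. In that fit the median log2 fold change over the 52140 windows tested was 6.69, so its values are not on the scale of the fit with all libraries. On library totals the ratios of the 6 loci without control 1 ran from 5.94 (SNHG12) to 10.97 (EPB41L4A-AS1). Without control 2 the RPS12 and second RPSA windows were not called, at -1.79 and -1.83, and without control 3 the second RPSA window was not, at -1.71. No member window was called with the replicate number as a block, and the SNHG12, RPS12 and second RPSA windows were not called with no filter on low counts. The next window, outside the choice, was chr6:13210001-13220000 on the plus strand, with a log2 fold change of -2.48 (SE 0.53) and 95.6 ± 28.1 against 12.9 ± 1.86 EPM. The fold changes of the fit with all libraries carry TMM scaling, under which the median of all tested windows was 0.78 on the log2 scale. With library totals that median was 0.22. The 6 loci lay at log2 ratios of -2.66 to -3.62 with library totals.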

How the data were processed

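Counts are the deposited crosslink events per nucleotide and strand, 1 file per library, made by the authors with cutadapt and Bowtie on hg19, per the submitters' processing notes. Those sources give no versions, and do not say how PCR copies or reads with several matches were handled. The barcoded primer is named in the labels' protocols.

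The members and lists were chosen with earlier results of these data known. Events were summed over the 6 loci and over strand-specific windows of 10000 nt. Windows were fitted with edgeR 4.0.16 (quasi-likelihood test, TMM factors, filterByExpr, Benjamini-Hochberg adjustment, threshold 0.05; R 4.3.3, limma 3.58.1), with DESeq2 1.42.0 as an alternative. Locus and stretch values are library-total EPM, with Python 3.11.15, numpy 2.4.6, pandas 2.3.3 and scipy 1.17.1; figures used matplotlib 3.10.9. A stretch needed at least 10% of locus events and 2 times its share of the length, with at most 4 per locus. Exact 95% intervals are Clopper-Pearson, conditional on the pooled sum for ratios. The window fit and the search for stretches were tested on simulated data. All members and stretches are named, and 1 window outside. Other snoRNA hosts, snoRNP proteins and cell markers need gene positions on hg19 and were not analysed here. Alternatives covered scaling, filter, tool, distinct positions, replicate block, stretch settings and each library left out.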

Additional observations from a re-analysis of the deposited data

How the results depend on the processing

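The 6 locus ratios kept their direction in controls over QKI-5 under every alternative for the whole locus. With TMM factors the log2 ratio was -2.47 for RPSA and -1.95 for SNHG12. Without the focal stretches it was -1.36 for RPSA, -1.48 for RPS12, -0.62 for SNHG12 and -1.76 for EPB41L4A-AS1, and it reversed to 2.10 for RPL27A, each from 1 to 6 control events. RPL39 had no control event there and gives no value. The control focal share was 89.8% with stretches of 100 nt and 90.3% with stretches kept from 20%. With distinct positions, which cut repeats at these loci more in the QKI-5 libraries, the QKI-5 share was 64.8% and the difference -29.0 percentage points. In the replicate block the difference is -21.5 by arithmetic, as it is without the block. Libraries left out in turn gave differences of -24.3 to -17.1 percentage points.

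Counts of called windows moved more. The reported counts were 226 higher and 32 lower. Size factors of DESeq2 gave 85 higher in edgeR, library totals 23 higher and 58 lower, distinct positions 26 higher and 66 lower, and the DESeq2 Wald test 431 higher and 150 lower. No filter on low counts left 6 lower. With the replicate block edgeR called 0 higher and 0 lower, while 2195 windows had an unadjusted p under 0.05. Libraries left out in turn gave 28 to 831 higher and 8 to 89 lower, out of 892 to 54850 windows tested, against 29960 with all libraries. Both extremes of 831 higher and 8 lower came without control replicate 1, and without QKI-5 replicate 2 there were 89 lower. The cause was not tested. Same-numbered libraries correlated at -0.0031, 0.102 and 0.0749 in their deviations from the group means, and differently numbered ones at -0.106 to 0.0584. The same-numbered libraries 2 and 3 thus had the highest values, all of them small, so pairing is not settled. The main fit did not take the numbers as pairs. Control depth limits every value of the rest and of single stretches in control 3.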

Other observations

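On the opposite strand of the 6 loci the controls held 0 events, and QKI-5 replicates 1, 2 and 3 held 23, 6 and 13 events, all of them in RPL27A and SNHG12. In RPL27A these were 11, 6 and 7 events, and in SNHG12 12, 0 and 6. The floor of 3 events in the deepest control is 21.8 EPM, far above the level of these events, so their absence from the controls could not be read at this depth.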
